A study of Mus musculus with 18 samples.

Results

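The cell cycle and DNA replication genes examined here are 38 mouse genes, found by symbol in all 5 deposited tables, which list 27179 genes or, for the mutant comparison, 35729 transcripts. They fall into 18 genes used in DNA replication (S phase), 18 used in mitosis (G2/M) and the 2 D-type cyclins Ccnd1 and Ccnd2, which act in G1. RNA-Seq was made on spinal motor neurons (MNs) in 18 samples. The embryonic samples, from brachial cord at e12.5, were 6 controls (labelled wild type) and 3 labelled Hoxc8 MNΔ, in which Olig2-Cre deleted floxed Hoxc8 (Hoxc8 fl/fl). The study describes control embryos of the mutant comparison as Hoxc8 fl/fl, and the labels do not mark which of the 6 these are. Olig2-Cre is switched on in MN progenitors and in cells that later form oligodendrocytes. Both embryonic groups were sorted by an Mnx1-GFP reporter, and cords were pooled for each sample. The postnatal samples, labelled wild type, were 3 brachial, 3 thoracic and 3 lumbar samples at p8, sorted by tdTomato from the Ai9 reporter after Cre was made from the Chat locus. Such a reporter stays on in any cell that has made Cre, so it marks history rather than present Chat expression.

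The cell cycle copies the genome in S phase and divides it in mitosis, and a neuron leaves this cycle for good when it is born. Before S phase, the MCM helicase is loaded onto DNA, and polymerases, the sliding clamp and enzymes that make deoxynucleotides then carry the copying through. Later, cyclin-dependent kinases, the spindle checkpoint and the anaphase-promoting complex lead the cell through chromosome separation. In the spinal cord, MN progenitors and glial precursors cycle, whereas MNs do not.

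Each table gives, for each gene, a base mean, which is the mean of its normalised read counts over the samples that entered that table. This is the authors' mean over samples of more than 1 group, and it has no SD and no value per sample. The tables form 3 pools. The e12.5 pool holds control and Hoxc8 MNΔ samples, the mixed-stage pool holds e12.5 and p8 brachial samples, and the p8 pool holds the 3 regions, whose tables list equal base means (largest difference 0). In the e12.5 table the smallest base means take 6 distinct values, from 0.142 to 0.183, as single reads of separate libraries would give. A level below is the base mean per 1000000 of the summed base mean of its table (ppm), and this sum was 1.34e+07 at e12.5, 2.23e+07 in the mixed-stage pool and 1.80e+07 at p8. A level in ppm also depends on a gene's length. The tables were normalised separately, so levels are set side by side with no test, and no difference here can be compared with the spread between replicates. Differences between p8 regions, or between control and Hoxc8 MNΔ, cannot be read from these means.

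Marker levels differed widely between the pools. Mnx1, an MN homeodomain gene and the source of the e12.5 reporter, had a level of 296.6 ppm at e12.5 and 0.0388 ppm at p8. The vesicular acetylcholine transporter Slc18a3 had levels of 59.8 and 1.31, and choline acetyltransferase Chat had 18.9 and 0.782. The 7 MN markers summed to 443.6 at e12.5 and 36.1 at p8, where 2 of them (Mnx1 with 0.696 and Isl2 with 0.0406) had a base mean under 1. Prph led the p8 sum (24.7), and it is listed at e12.5 with several transcripts and a level of 0. At p8 the 7 oligodendrocyte markers summed to 435641 ppm, led by myelin basic protein Mbp at 351619. The 6 markers listed for their precursors summed to 2999, most of it from Bcas1 at 2158. The others were Gpr17 (491.3), Sox10 (177.0), Olig2 (79.1), Pdgfra (60.0) and Cspg4 (33.9). At e12.5 these lists summed to 72.2, led by Mbp (62.8), and to 25.5, led by Sox10 (7.78). The 7 microglia markers summed to 636.6 at p8 and 10.8 at e12.5, led at both stages by Csf1r (324.2 and 3.56), and the 6 astrocyte markers to 4379 and 139.3, led by S100b (4153) at p8 and by Slc1a3 (114.9) at e12.5. The 5 endothelial markers, led by Cldn5 at p8 (36.9) and Kdr at e12.5 (6.42), summed to 81.6 and 12.9, and the 5 erythroid markers, led by Alas2 (11.0) and Klf1 (0.285), to 11.0 and 0.456. The p8 erythroid sum covers 4 of the 5, since Hbb-bt is not listed at p8. The 7 neural progenitor markers went the other way, with 1075 at e12.5, led by the filament gene Vim (423.7), and 151.5 at p8, led by Fabp7 (61.99). The 4 immature neuron markers, led by Tubb3 (3160) at e12.5 and Dcx (19.9) at p8, summed to 7643 and 57.8. Symbols listed with several transcripts are near 0 in the e12.5 table (described below), so the e12.5 marker sums are incomplete. Markers listed there with 1 transcript, and with a base mean of at least 10 in either table, were therefore counted one by one, beside 61.7% of all such symbols more than 2-fold higher at e12.5 than at p8 and 17.6% more than 2-fold lower. All 7 of microglia, all 4 of oligodendrocyte precursors and the 1 of oligodendrocytes were more than 2-fold lower. Of 3 endothelial markers 2 were lower, and Cdh5 had a ratio of 1.80. Of 3 astrocyte markers S100b was lower, and Aldh1l1 (4.07) and Slc1a3 (2.82) were higher. All 6 of MNs, 5 of 6 of progenitors and all 3 of immature neurons were more than 2-fold higher, and no erythroid marker could be compared. In bulk samples, fewer cells of a type and less RNA per cell cannot be told apart, and the part of these cells in the levels below was not tested.

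All 38 genes had reads at p8. Their p8 base means ran from 24.5 for Ccne2 to 435.8 for Rrm1, against 7244 of 27179 listed genes at 0. The 18 replication genes summed to a level of 188.5 ppm at p8 and the 18 mitosis genes to 154.7 ppm. The MCM2-7 helicase, loaded at origins before S phase, had subunit levels at p8 from 9.70 ppm for Mcm3 to 18.3 ppm for Mcm6. Mcm4 had 17.3, Mcm5 15.7, Mcm7 13.4 and Mcm2 13.2. The helicase loaders Cdc6 and Cdt1 had 2.71 and 5.66, and Gins2, a subunit of the GINS complex that activates the helicase, had 7.44.

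Enzymes that make deoxynucleotides were also present at p8. Rrm1 and Rrm2, the large and small subunits of ribonucleotide reductase, had levels of 24.3 and 17.5 ppm, and thymidylate synthase Tyms had 2.90 ppm. The primase and polymerase alpha subunits Prim1 and Pola1, which lay down the first stretch of new DNA, had 2.75 and 3.08. The sliding clamp Pcna had 17.8 and the flap endonuclease Fen1, which trims Okazaki fragments, 12.7. E-type cyclins, which start S phase with Cdk2, had 2.50 ppm (Ccne1) and 1.36 ppm (Ccne2).

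Among mitosis genes at p8, the proliferation marker Mki67 had a level of 18.7 ppm, topoisomerase Top2a 15.0 ppm and the spindle assembly factor Tpx2 13.7 ppm. The mitotic kinase Cdk1 had 6.79 and its cyclins Ccna2, Ccnb2 and Ccnb1 had 10.3, 7.67 and 2.86. Cdc20 and Ube2c, the activator and the ubiquitin-conjugating enzyme of the anaphase-promoting complex, had 13.0 and 10.01. The Aurora kinases Aurka and Aurkb had 7.37 and 5.27, Birc5 (survivin), a partner of Aurora B, 8.19, and Polo-like kinase Plk1 4.47. The checkpoint kinases Bub1 and Bub1b had 4.81 and 6.89. The centromeric histone Cenpa had 8.17, and the large kinetochore proteins Cenpf and Cenpe had 6.71 and 4.89.

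Genes can be compared with each other only per length. In ppm per kb of merged exons (GENCODE M21), the p8 order was led by Pcna at 7.41, Cdc20 at 6.94, Rrm2 at 6.33, Fen1 at 5.26 and Ccnb2 at 5.01. It ended with Tyms at 0.476, Cenpf at 0.435, Ccne2 at 0.391 and Pola1 at 0.350. The group medians were 2.05 ppm per kb for replication and 1.82 for mitosis, and Ccnd1 and Ccnd2 had 2.05 and 1.88. With no value per sample, neighbours in this order cannot be told apart by their spread. Exons of 9 members (Mcm7, Gins2, Fen1, Ccne2, Ccna2, Cdc20, Ube2c, Ccnd1 and Ccnd2) overlap a gene on the opposite strand. Whether reads were counted by strand is not given in the sources used here, so reads of such partners may be included. Whether shared reads were left out is not given either, and both limits hold for every pool.

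**Figure D1:**
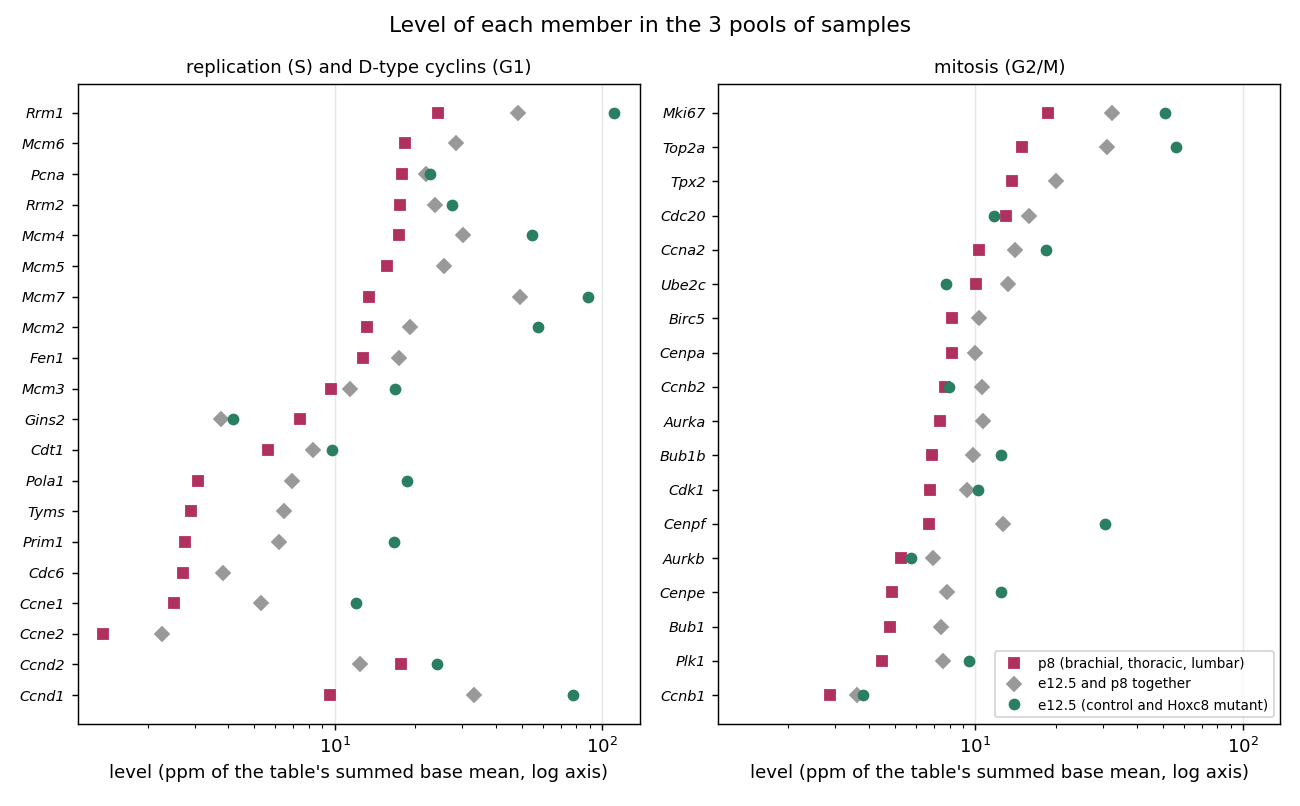
Level of each member (ppm, log axis) in the p8 pool, the mixed-stage pool and the e12.5 pool, with replication genes and D-type cyclins on the left and mitosis genes on the right, ordered by p8 level within each group. At e12.5 the 27 members listed with 1 transcript are shown. By share of the sum 24 of 27 e12.5 points lie to the right of the p8 points, a direction that turns for many mitosis genes relative to the median of all symbols, and Gins2, Cdc20 and Ube2c lie to the left. Cdc20 and Ube2c have their highest point in the mixed-stage pool. Gins2, Cdc20 and Ube2c overlap a gene on the opposite strand, as do Mcm7 and Ccnd1, which have large ratios. The part of such overlap was not tested.

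At e12.5 the reading was limited by how the table was built. It lists transcripts in place of genes, and symbols listed with 2 or more transcripts had almost no reads there. Of 4167 such symbols with a base mean of at least 100 in the mixed-stage table, 3355 (80.5%) had an e12.5 level under 0.1 of their mixed-stage level, and the median ratio was 0.0103. Of 7284 symbols with 1 transcript, 439 (6.03%) did, with a median ratio of 2.33. The members followed the same split. The 9 members of the first kind that passed this minimum were all under 0.1, with a highest ratio of 0.0377, whereas none of the 25 of the second kind was, with ratios from 0.584 to 3.01. Mcm5, Tyms, Fen1, Bub1, Tpx2 and Cenpa were listed at 0 at e12.5, yet had mixed-stage levels from 6.47 ppm (Tyms) to 25.7 ppm (Mcm5). Why such symbols were near 0 is not stated in the sources. The e12.5 values of the 11 members listed with 2 or more transcripts (Mcm5, Mcm6, Cdc6, Tyms, Fen1, Ccne2, Aurka, Bub1, Tpx2, Birc5 and Cenpa) are therefore not read as expression. The e12.5 account rests on 27 members, 12 of replication, 13 of mitosis and both D-type cyclins, a restriction chosen after seeing the data.

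**Figure D2:**
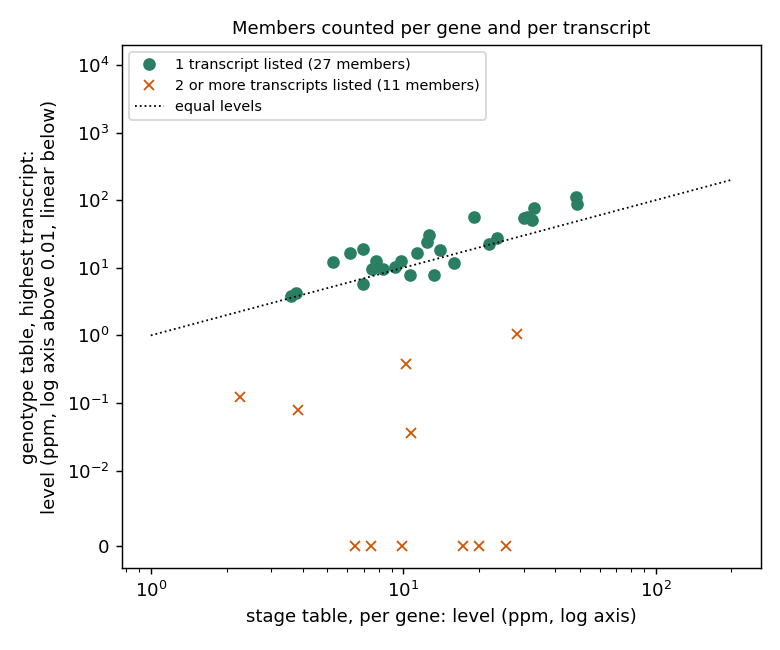
Level of each of the 38 members in the mixed-stage table, counted per gene (x, ppm, log axis), against its highest transcript in the e12.5 genotype table (y, ppm, log axis above 0.01 and linear below). The 27 members with 1 transcript lie near the dotted line of equal levels, and the 11 with 2 or more lie far under it, 6 of them at 0.

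Replication genes made up a larger share of the summed signal at e12.5 than at p8, although relative to the median of all symbols 6 of the 12 readable members were higher and 6 lower. The 12 summed to a level of 439.3 ppm at e12.5 and 134.7 ppm at p8. Rrm1 had a level of 110.7 ppm at e12.5, 48.3 in the mixed-stage pool and 24.3 at p8. Mcm7 had 88.6, 49.0 and 13.4 in the same order, and its ratio of e12.5 to p8, 6.598, was the largest in this group. Mcm2 had 57.4, 19.1 and 13.2, and Mcm4 had 54.4, 30.1 and 17.3, but Mcm3 had 16.8, 11.4 and 9.70, a ratio of only 1.73. So subunits that work in one ring had ratios from 1.73 to 6.598. Pola1 (18.7, 6.95 and 3.08) and Prim1 (16.7, 6.18 and 2.75) had nearly equal ratios of 6.07 and 6.05. Ccne1 had a ratio of 4.78.

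Other replication members had ratios closer to 1 by share of the sum. Pcna had levels of 22.7 ppm at e12.5, 21.9 ppm in the mixed-stage pool and 17.8 ppm at p8. Rrm2 had 27.5, 23.6 and 17.5, a ratio of 1.57 beside the 4.56 of its partner Rrm1. Cdt1 had 9.75, 8.31 and 5.66. Gins2 went the other way, with 4.17 at e12.5, 3.76 in the mixed-stage pool and 7.44 at p8, a ratio of 0.561 that stayed under 1 on each of the scales tried.

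Mitosis members had a smaller median ratio, 1.79 against 3.73 for replication. The 13 readable ones summed to a level of 237.7 ppm at e12.5 and 112.5 ppm at p8, while relative to the median of all symbols 11 of the 13 were lower at e12.5. The largest ratios of e12.5 to p8 belonged to Cenpf (30.4 and 6.71, ratio 4.53) and Top2a (56.3 and 15.0, ratio 3.77), a topoisomerase that also acts in S phase. Mki67 had 51.0 and 18.7, Cenpe 12.4 and 4.89, and Plk1 9.45 and 4.47, with ratios of 2.73, 2.54 and 2.12. Bub1b (1.81), Ccna2 (1.79), Cdk1 (1.503) and Ccnb1 (1.33) had ratios between these and 1. Aurkb had 5.72 and 5.27 and Ccnb2 had 7.95 and 7.67, nearly equal. For both genes of the anaphase-promoting complex the e12.5 level was the smaller, 11.7 against 13.0 for Cdc20 and 7.74 against 10.01 for Ube2c. Their mixed-stage levels, 15.9 and 13.3, were above both, as were those of Ccnb2 (10.6) and Aurkb (6.95). Counted per gene, the mixed-stage level over the p8 level was 1.22 for Cdc20 and 1.32 for Ube2c. The direction of these genes thus depended on the table used, and the reason was not tested.

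The 2 D-type cyclins, which carry growth signals to Cdk4 and Cdk6, differed. Ccnd1 had levels of 77.5 ppm at e12.5, 33.1 in the mixed-stage pool and 9.63 at p8, the largest ratio among the readable members at 8.04. Ccnd2 had 24.2, 12.4 and 17.6, a ratio of 1.37. Relative to the median of all symbols the ratios were 2.51 for Ccnd1 and 0.428 for Ccnd2, so the direction of Ccnd2 depended on the scaling and that of Ccnd1 did not.

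These ratios have to be read against all genes, since a few features filled much of the p8 sum, Mbp alone 35.2% of it. Among 10157 symbols with 1 transcript and a base mean of at least 10 in either table, 61.7% were more than 2-fold higher at e12.5 and 17.6% more than 2-fold lower, with a median ratio of 3.20. Of the 12 replication members 7 were more than 2-fold higher (Mcm7, Pola1, Prim1, Ccne1, Rrm1, Mcm2 and Mcm4) and 0 lower, with a range from 0.561 to 6.598. Of the 13 mitosis members 5 were more than 2-fold higher (Cenpf, Top2a, Mki67, Cenpe and Plk1) and 0 lower. The replication share was thus close to that of all symbols, which makes it no result about these genes, and the mitosis share was under it. The median replication ratio was 3.73 by share of the sum, 2.09 when features over 1% of a sum were left out, and 1.17 relative to the median of all symbols with 1 transcript. The mitosis median was 1.79, 1.003 and 0.559 on the same scales, so 11 of 13 mitosis members were higher at e12.5 by share and 11 of 13 were lower relative to the median. For replication these counts were 11 of 12 higher by share, and 6 higher with 6 lower relative to the median. Features over 1% made up 45.0% of the sum at p8, 24.4% in the mixed-stage pool and 2.03% at e12.5.

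**Figure D3:**
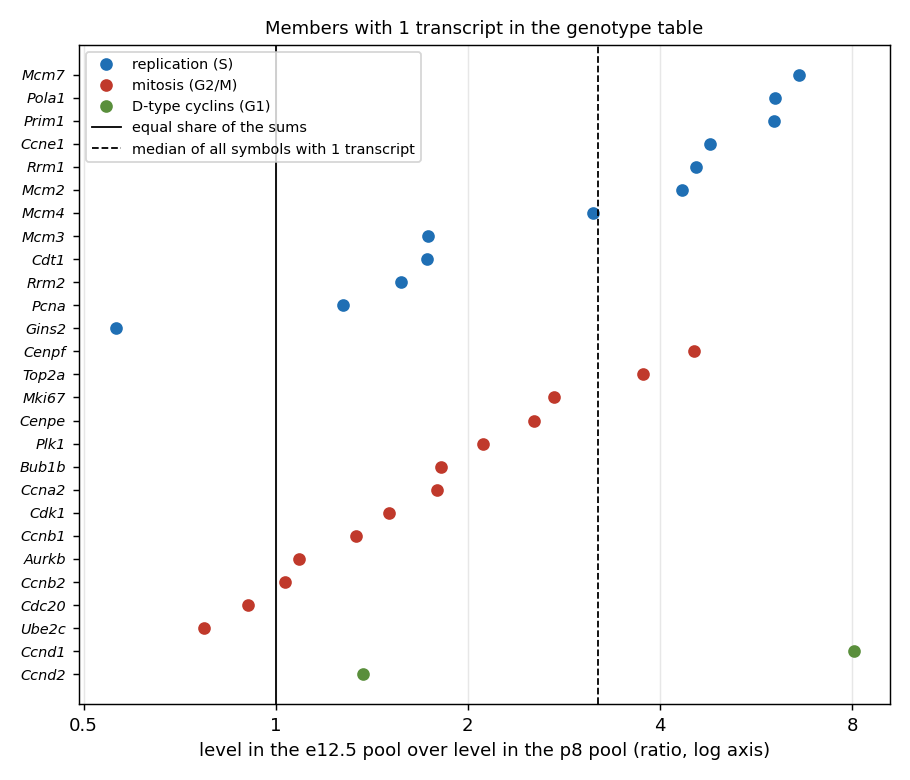
Ratio of the e12.5 level to the p8 level (log axis) for the 27 members with 1 transcript, by group. The solid line marks equal shares of the sums and the dashed line the median of all symbols with 1 transcript, 3.20. Replication genes from Mcm2 up to Mcm7 and Ccnd1 lie to the right of the dashed line, and among mitosis genes Cenpf and Top2a do.

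The per-gene tables allow the same comparison for all 38 members, though the mixed-stage pool contains p8 samples and so shows a smaller contrast. Of 15358 symbols, 36.6% were more than 2-fold higher in the mixed-stage pool than in the p8 pool and 7.59% more than 2-fold lower, with a median ratio of 1.44. Of 18 replication genes 5 were more than 2-fold higher and 0 lower, namely Mcm7 (3.65), Pola1 (2.26), Prim1 (2.24), Tyms (2.23) and Ccne1 (2.11), and the group median was 1.59. Of 18 mitosis genes 1, Top2a (2.07), was more than 2-fold higher and 0 lower, and the median was 1.40 with a range from 1.22 to 2.07. Both shares were under that of all symbols. Gins2 again had the lowest ratio of the replication genes, 0.506. Both pools include p8 brachial samples, so they are not independent. Over the 13736 symbols with a base mean of at least 10 in both tables, the median ratio was 1.38. Relative to that median, 13 of 18 replication genes and 10 of 18 mitosis genes were higher in the mixed-stage pool, against 17 and 18 by share. The mitosis median of 1.40 lies between 1.38 and 1.44, so the mitosis count depends on which median is used.

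The balance of the groups within a table does not depend on the scaling between tables. It can depend on the unit counted, which was the transcript at e12.5 and the gene in the mixed-stage and p8 pools. The summed level of the mitosis genes over that of the replication genes was 0.540 at e12.5, 0.734 in the mixed-stage pool and 0.821 at p8 over all members. Over the members with 1 transcript it was 0.541, 0.747 and 0.835. The mitosis share was thus the smallest at e12.5. The e12.5 value over the p8 value was 0.648, and the part of the counting unit in this contrast was not tested. When each of the 25 genes was left out in turn it stayed between 0.570, without Top2a, and 0.731, without Mcm7. With the median member of each group in place of the sum, the ratios over all members, whose e12.5 values include the 11 near 0, were 0.608, 0.727 and 0.671, and the order of the mixed-stage and p8 pools changed. Over members with 1 transcript, the mitosis and replication medians were 11.7 and 20.7 ppm at e12.5, and 6.89 and 11.5 ppm at p8. The contrast between e12.5 and p8 was thus much smaller by medians than by sums. No value per sample exists for this balance, so how far it varies between replicates is unknown.

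**Figure D4:**
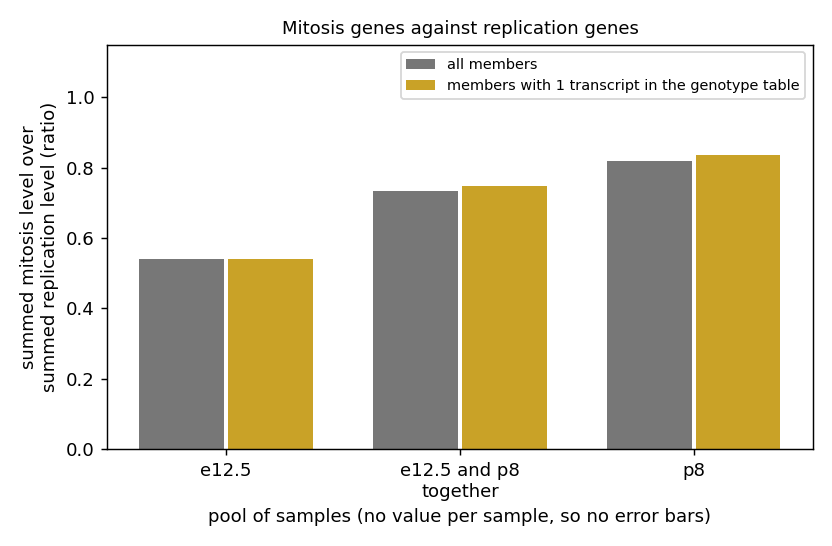
Summed level of mitosis genes over summed level of replication genes (ratio) in the e12.5, mixed-stage and p8 pools, for all members and for those with 1 transcript in the e12.5 table. Bars start at 0 and have no error, since no value per sample is given. The e12.5 pool was counted per transcript and the mixed-stage and p8 pools per gene. The bars go from 0.540 at e12.5 to 0.821 at p8 over all members.

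Other genes of the cycle gave the surroundings. Of 30 further replication genes 16 could be compared at e12.5, where 8 were more than 2-fold higher than at p8 and 1 lower, with a median ratio of 2.08, all by share of the sum and beside the 61.7% and 17.6% of all symbols. The members of this list named for e12.5 are the 3 with the most signal in ppm among those listed with 1 transcript, since others such as Rpa1 are listed at 0 there. They were the clamp loader subunits Rfc2 (85.2 at e12.5 and 44.1 at p8) and Rfc3 (40.1 and 3.78) and the polymerase delta subunit Pold1 (33.0 and 13.0). By ppm, with no correction for length, those named for p8 were Rfc2, Gins4 (38.9) and the single-strand binding subunit Rpa1 (30.5). Of 30 further mitosis genes 20 could be compared, with 7 higher, 2 lower and a median of 1.51, so this share too was under that of all symbols. The condensin subunit Ncapd2 had a level of 228.5 ppm at e12.5 and 12.9 ppm at p8, Incenp 38.05 and 15.9, and the condensin subunit Smc4 37.97 and 17.0. At p8 this list was led by Anln (158.4, against 7.10 at e12.5), which encodes the actin-binding protein anillin and is also expressed in myelinating oligodendrocytes. It was followed by Bub3 (84.0) and Pttg1 (30.0).

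Genes that drive or restrain G1 were described in the same way. Among 12 G1 kinases, cyclin D3 and E2f factors, Cdk4, the partner of the D-type cyclins, had a level of 525.7 ppm at e12.5 and 104.5 ppm at p8. E2f4 had 85.9 and 17.1, E2f5 had 22.0 and 16.6, and Ccnd3 was among the p8 leaders at 58.0. Of the 6 in this list that could be compared, 4 were more than 2-fold higher at e12.5 and 0 lower, a share near the 61.7% of all symbols. Among 10 inhibitors and pocket proteins 3 could be compared, 2 higher and 1 lower, too few to set against that share. The retinoblastoma gene Rb1 had 129.0 at e12.5 and 25.4 at p8, and the inhibitor Cdkn1b (p27) had 71.2 and 9.92. The others of this list that were listed with several transcripts, Rbl1 and Cdkn1c among them, are not read at e12.5. At p8 the inhibitor Cdkn1c (p57) had 671.5 ppm, followed by Rbl2 (39.8) and Cdkn2d (35.4).

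Promoters differed between the groups in a way that uses no expression value. RefSeq promoter windows (GRCm38.p6) reach from 250 bases before to 50 bases after a gene's start and were found for 30 of the 38 members. Those of Tpx2, Ccne2, Aurkb, Ccna2, Ccnd1, Ccnd2, Mcm4 and Gins2 were not in the table. The windows were searched on both strands for an E2F site (TTGGCGC or TTCCCGC or TTCGCGC), letters known from sites of E2F factors, which regulate S-phase genes. They were also searched for the CHR element (TTTGAA or TTCGAA), bound by the MuvB complex that times G2/M genes, and for the CCAAT box, bound by NF-Y. No word contains another, though matches may share bases, and TTCGAA reads the same on both strands. E2F letters lay in 10 of 15 replication promoters (66.7%), 3 of 15 mitosis promoters (20.0%) and 9.20% of 27025 symbols. CHR letters lay in 3 of 15 replication promoters (20.0%), 12 of 15 mitosis promoters (80.0%) and 21.7% of all symbols. CCAAT was found in 10 of 15 and 14 of 15, against 41.1% of all. CHR and CCAAT together occurred in 12 of 15 mitosis promoters, 2 of 15 replication promoters (13.3%) and 9.65% of all. The further genes gave shares of the same kind, with E2F letters in 13 of 23 replication promoters (56.5%) and 4 of 26 mitosis promoters (15.4%), and CHR letters in 5 of 23 (21.7%) and 20 of 26 (76.9%).

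The 120 bases before the start are printed below for 6 members, 5′ to 3′ on the gene's strand, to show how the words are placed. Rrm1 and Prim1 stand for replication genes with a large ratio of e12.5 to p8. Cdc20, Ube2c and Cdk1 stand for mitosis genes with ratios from 0.773 to 1.503, and Top2a for one with a large ratio. Capitals mark E2F letters in the first 2 and CHR or CCAAT letters in the other 4, on either strand (TTCAAA and ATTGG are the reverse complements of TTTGAA and CCAAT).
Rrm1 (chr7:102441575-102441694, plus strand): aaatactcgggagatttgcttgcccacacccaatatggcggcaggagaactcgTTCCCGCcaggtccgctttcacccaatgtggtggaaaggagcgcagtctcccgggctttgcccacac
Prim1 (chr10:128015095-128015214, plus strand): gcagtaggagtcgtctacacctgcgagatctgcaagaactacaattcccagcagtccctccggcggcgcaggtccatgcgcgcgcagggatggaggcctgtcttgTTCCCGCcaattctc
Cdc20 (chr4:118437344-118437463, minus strand): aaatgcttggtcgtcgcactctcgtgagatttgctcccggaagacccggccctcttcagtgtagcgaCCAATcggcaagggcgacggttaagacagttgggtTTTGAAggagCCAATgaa
Cdk1 (chr10:69352913-69353032, minus strand): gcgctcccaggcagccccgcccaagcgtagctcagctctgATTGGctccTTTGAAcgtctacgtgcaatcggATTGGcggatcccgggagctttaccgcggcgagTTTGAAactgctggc
Ube2c (chr2:164769809-164769928, plus strand): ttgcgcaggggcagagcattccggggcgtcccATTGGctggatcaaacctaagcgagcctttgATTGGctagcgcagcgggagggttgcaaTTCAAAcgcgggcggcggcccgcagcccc
Top2a (chr11:99024190-99024309, minus strand): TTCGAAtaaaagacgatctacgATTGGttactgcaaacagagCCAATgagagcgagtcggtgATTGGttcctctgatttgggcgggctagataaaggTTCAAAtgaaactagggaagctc

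Cdk1 held 2 CHR and 2 CCAAT matches in these bases, Top2a 2 and 3, and Cdc20 and Ube2c 1 and 2 each, while Rrm1 and Prim1 held 1 E2F match each. CCAAT was neither marked nor counted in Rrm1 and Prim1, though the printed bases of both hold it. E2F letters were likewise not marked in the other 4, and the full window of Cdk1 holds them. Top2a and Ube2c thus carried the same pair of words with ratios of e12.5 to p8 of 3.77 and 0.773. The matches are letters in a window, not sites shown to be bound. Of the mitosis promoters, Birc5, Cenpe and Ccnb1 held no CHR letters, and of the replication promoters Mcm2, Pcna, Ccne1, Rrm2 and Tyms held no E2F letters.

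**Figure D5:**
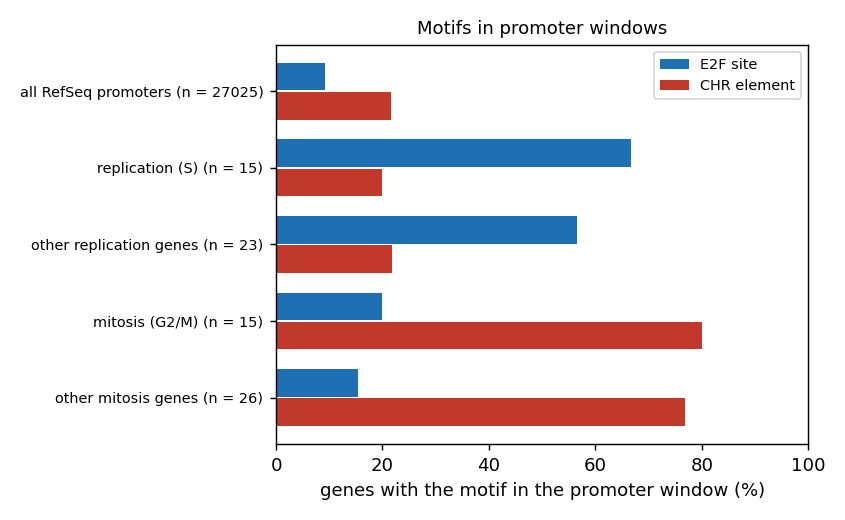
Percent of genes whose promoter window holds the E2F site or the CHR element, for all RefSeq promoters, the replication and mitosis members, and the further replication and mitosis genes (n beside each name). E2F letters reach 66.7% in replication members and CHR letters 80.0% in mitosis members, against 9.20% and 21.7% of all.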

How the data were processed

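MNs were sorted and sequenced as single-end RNA-Seq. The authors aligned unique reads to GRCm38 (mm10 in the processing notes) with the program printed as HISET2 (HISAT in the notes), took read counts with featureCounts, and the authors ran DESeq2 on Galaxy for each comparison. Versions, the annotation and the strand setting are not given in the sources used here. The signal deposited by the authors is the base mean, made from read counts divided by size factors and averaged over samples. The 5 tables also hold the authors' log2 fold changes, standard errors, Wald statistics and p-values for stage, genotype and region. These were not used, so no test was made and no contrast between regions or genotypes is given. Loss of Hoxc8 in the mutant samples could not be checked without values per sample.

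Samples were grouped by the labels, which list 6 e12.5 controls, while the methods name fewer, and do not say which entered which table. The depth per sample is unknown. The methods call the replicates biological, each from several pooled cords. Entrez and RefSeq identifiers were matched to symbols for 93.0% of genes and 99.2% of transcripts, and the transcript with the highest base mean stood for a symbol. Levels were expressed per 1000000 of the summed base mean, and ratios were taken with no pseudocount. Symbols entered the comparison with all genes at a base mean of at least 10 in either table, and a ratio over 2 or under 0.5 was counted. The medians used for scaling were taken over symbols that reached this minimum in both tables. Every member is named. Of the other cell cycle lists the 3 with the highest level at each stage are named, except that Rbl1, which the rule names at e12.5, is given without a value because it is listed with several transcripts, and of each marker list the leading one. Other genes (Slc18a3, Chat, Slc5a7, Isl2, Cdh5, Aldh1l1, Gpr17, Olig2, Pdgfra and Cspg4 among the markers) were named after their values were seen. The members and lists were chosen with earlier results of these data known. Lengths are merged exons of GENCODE M21, and promoter windows are from RefSeq. The ratios of shares and the median scaling were tested on simulated data with a single identifier per symbol. The counting of transcripts, the balance of the groups and the motif search were not tested in this way. Alternatives were other scalings, medians, sums over transcripts, leaving out the highest member, other groupings of the cyclins, and members with 1 transcript. Python 3.11.15, numpy 2.4.6, pandas 2.3.3 and matplotlib 3.10.9 were used.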

Additional observations from a re-analysis of the deposited data

How the results depend on the processing

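The balance of mitosis over replication genes stayed within 1.5 times its value in each pool under every alternative run. The pools themselves differed by little more than that (0.540 at e12.5 and 0.821 at p8), so this tolerance cannot show that the contrast between them was stable. With the median member the values were 0.608 at e12.5 and 0.671 at p8. Of the alternative values, 34 stayed within 1.5 times, 7 moved by over 1.5 times and 5 reversed. Direction was checked only for the ratios of e12.5 to p8, so the balances and levels could not be counted as reversed. Sums over transcripts and the minimum base mean left the median ratios unchanged. Without features over 1% of the sum, the p8 level moved from 188.5 to 343.0 for replication and from 154.7 to 281.5 for mitosis. The median ratio of e12.5 to p8 over all members, including those with several transcripts, was 1.65 for replication and became 0.923 on that scale, 0.661 relative to the median of all symbols and 3.73 over members with 1 transcript. For mitosis it was 1.21 and became 0.679, 0.486 and, over members with 1 transcript relative to their median, 0.559. For D-type cyclins it was 4.71 and became 2.64, 1.89, 2.07 (mixed-stage over p8) and 1.47 (1 transcript, relative to the median). The scalings differ by construction. The restriction to 1 transcript was added after seeing the data. No paired analysis was possible because the tables hold no values per sample, and leaving out replicates could not be run for the same reason. Depth per sample, and so what it limits, is unknown.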
